A study of Mus musculus with 5 samples.

Results

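Plxdc2, Celf2 and Cubn are 3 long genes of proximal mouse chromosome 2 that were markedly lower in embryonic stem cells lacking the −45 super-enhancer of Nanog. They were picked by symbol, as strongly lowered genes of 1 chromosome region, from the summed level in the same comparison that is described here. Their gene-level differences are therefore a description, with no test. The 3 genes are 3 of 10855 symbols and of 24538 genes, the others being assembly IDs, in a deposited table of read counts per exon bin (an exon, or a piece of one where transcripts differ). The comparison is between 3 wildtype libraries (wildtype 1 to 3) and 2 libraries with the −45 super-enhancer deleted (deleted 1 and 2), all of polyadenylated RNA from murine embryonic stem cells (ESC). The study design counts 3 libraries in each condition, and a further deleted library is not analysed here. A super-enhancer is a long stretch of regulatory DNA with many enhancers close together. The labels name a 6-day treatment with ethanol vehicle or 4-hydroxytamoxifen for every library without saying which library received which. The treatment may thus differ between the groups, and its effects cannot be told apart here from those of the deletion. The labels name no clone, strain or culture, so spread between libraries may be technical. Below, levels are means ± SD, with n = 3 for wildtype and n = 2 for deleted cells, and log2 fold changes compare deleted with wildtype cells and carry ± SE.

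Plxdc2 encodes a transmembrane protein of the cell surface with a plexin-like domain, known as a receptor for the secreted factor PEDF (gene Serpinf1). Celf2 encodes an RNA-binding protein of the CELF family, which regulates alternative splicing and mRNA stability and is best known from brain, heart and muscle. Cubn encodes cubilin, a very large peripheral membrane receptor that takes up vitamin B12 bound to intrinsic factor, and other proteins, together with amnionless (Amn) and megalin (Lrp2). In the early embryo cubilin is a protein of the visceral endoderm, the absorptive layer around the epiblast.

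Wildtype 3 was the deepest library and differed most from the rest of its group, with a chi-square per degree of freedom over genes of 93.4 and 87.4 against them and 9.96 between them. Total bin counts ranged from 93574214 to 213042064, and 1 count was worth 0.00463 to 0.0107 CPM (counts relative to the library total). In counting by exon bin, a read across a bin border usually counts in each bin. Symbol rows, 10855 of 24538 genes, held 0.328% to 0.375% of the counts. The other genes carry assembly IDs that the table does not pair with symbols, and these held nearly all counts. Shares over tested symbols below thus describe mostly genes with few counts. None of 8 embryonic stem cell markers listed, Nanog and Pou5f1 among them, has a row under its symbol. Neither the cell type nor the deletion was therefore checked here against its defining genes. Of 8 tested feeder fibroblast markers 5 were higher in the deleted cells (Col1a2, Col5a2, Col6a1, Col6a2 and Pdgfrb) and none was lower, against 18.9% higher and 12.9% lower over all tested symbols (edgeR, adjusted p under 0.05). Col6a1 met the level of the low-count filter in the deleted libraries alone, so it could be tested only through the group where it is high. Without deleted 1, Col6a1 and Pdgfrb of these passed, and without deleted 2 Col1a2. In the same list Col3a1, Lum, Dcn, Postn, Twist2, Prrx1 and S100a4 had too few counts for a test. Of these, Lum, Dcn and Postn held 3 counts or fewer in every library. Over the 15 markers with rows the list summed to 10.1 to 13.3 CPM in wildtype and 14.3 to 14.5 CPM in deleted libraries. Much of this sum was Fbn1, which did not pass, at 5.53 ± 1.20 CPM in wildtype and 6.17 ± 0.0624 CPM in deleted cells. The part of these markers in the results below was not tested. In such bulk RNA, fewer cells of a type and less RNA per cell cannot be told apart.

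The promoters of Cubn and Celf2 are shown because these genes were lower together and because the Celf2 bins bear on where its RNA begins. RefSeq (GRCm38.p6) gives 1 promoter window of 300 bases for Cubn and 5 for Celf2, and a match was found for 2 of the 3 genes. Shown for Celf2 are the window nearest the 3′ end of the gene and the next one upstream. All lie on the minus strand and are written 5′ to 3′. Capitals mark matches, on either strand, to 7 short motifs. For factors these were ATCAAAG of the TCF and LEF proteins, AGATAA of the GATA proteins and ACAAAG of the SOX proteins. For promoter elements they were TATAAA, the core of the TATA box, then CCAAT, the GC box written GGGCGG, and the E-box, which is CACGTG and reads the same on both strands. No motif contains another.
Cubn, chr2:13491827-13492126: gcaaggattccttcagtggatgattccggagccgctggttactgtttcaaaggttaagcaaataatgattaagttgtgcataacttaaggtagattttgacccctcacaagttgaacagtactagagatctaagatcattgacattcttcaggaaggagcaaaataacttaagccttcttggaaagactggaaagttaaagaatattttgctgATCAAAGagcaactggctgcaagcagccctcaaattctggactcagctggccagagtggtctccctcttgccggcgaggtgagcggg
Celf2, chr2:6721613-6721912: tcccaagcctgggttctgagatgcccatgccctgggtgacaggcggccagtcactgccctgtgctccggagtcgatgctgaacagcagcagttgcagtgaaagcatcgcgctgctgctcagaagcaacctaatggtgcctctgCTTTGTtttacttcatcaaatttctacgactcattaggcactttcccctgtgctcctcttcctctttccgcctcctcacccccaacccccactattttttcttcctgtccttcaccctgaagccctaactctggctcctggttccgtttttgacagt
Celf2, chr2:6871986-6872285: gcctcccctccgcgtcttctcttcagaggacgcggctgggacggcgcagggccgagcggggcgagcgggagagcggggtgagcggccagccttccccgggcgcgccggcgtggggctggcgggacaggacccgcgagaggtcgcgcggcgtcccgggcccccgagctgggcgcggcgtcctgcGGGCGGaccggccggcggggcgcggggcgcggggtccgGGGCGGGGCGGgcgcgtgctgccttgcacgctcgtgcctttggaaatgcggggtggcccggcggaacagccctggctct

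The Cubn window holds 1 match, to ATCAAAG, which 3.73% of 32851 RefSeq windows of this length hold. The Celf2 window nearest the 3′ end holds 1 match, to ACAAAG, found in 18.7% of windows. The window upstream of it holds 3 matches to GGGCGG, a motif found in 35.7% of windows. No motif searched was found in more than 1 of these 3 windows. The other motifs occur in 11.2% (AGATAA), 13.6% (TATAAA), 37.4% (CCAAT) and 7.15% (CACGTG) of windows. Among the Celf2 windows not shown, 1 holds a match to GGGCGG and 1 holds matches to AGATAA and TATAAA. The GC content was 44.3% in the Cubn window, with 5 CG dinucleotides, and 54.0% in the first Celf2 window, with 8. The second Celf2 window had 80.3% and 48 CG dinucleotides, against medians of 52.7% and 7 over all windows. A match is a description of the letters and no evidence of binding.

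Plxdc2 had the highest wildtype counts of the 3 genes. It stood at 5.22 CPM in wildtype 1, 5.22 CPM in wildtype 2 and 6.54 CPM in wildtype 3, and at 1.29 and 1.35 CPM in deleted 1 and 2. The groups did not overlap, and the lowest wildtype library was 3.86 times the highest deleted one. The mean was 5.66 ± 0.762 CPM in wildtype and 1.32 ± 0.0472 CPM in deleted cells. This is a log2 fold change of −2.11 ± 0.14, or 23.2% of the wildtype level. Wildtype 3 was the highest library, and without it the log2 fold change was −1.99.

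Celf2 lay between the other 2 genes in its wildtype counts. Its levels were 3.79, 3.85 and 4.11 CPM in wildtype 1, 2 and 3, against 1.36 and 1.23 CPM in deleted 1 and 2. The groups did not overlap here either, with the lowest wildtype library at 2.79 times the highest deleted one. Means were 3.92 ± 0.171 CPM and 1.30 ± 0.0915 CPM, a log2 fold change of −1.60 ± 0.11, or 33.0% of the wildtype level.

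Cubn had the fewest counts, between 208 and 418 per wildtype library, with 26 in deleted 1 and 60 in deleted 2. Its levels were 1.67, 2.01 and 1.93 CPM in wildtype 1, 2 and 3. Deleted 1 stood at 0.279 CPM and deleted 2 at 0.606 CPM, so the deleted libraries differed from each other more than the wildtype ones did. All the same, the lowest wildtype library was 2.76 times the highest deleted one. Means were 1.87 ± 0.178 CPM and 0.442 ± 0.231 CPM, a log2 fold change of −2.07 ± 0.27, or 23.8% of the wildtype level. The size of the Cubn difference depends on the library: it was −1.63 without deleted 1 and −2.76 without deleted 2.

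**Figure D1:**
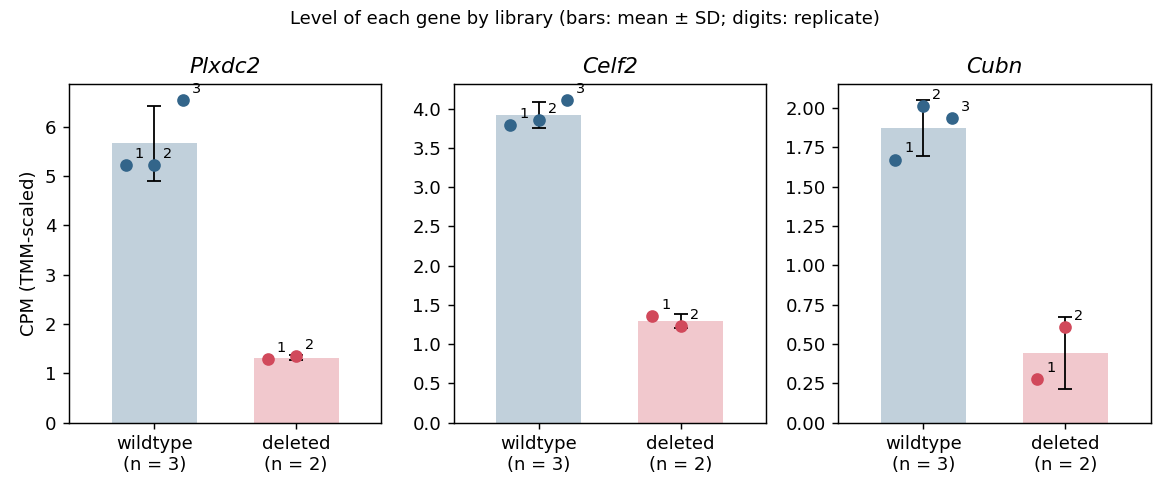
Level of Plxdc2, Celf2 and Cubn in each library, in CPM scaled by TMM, with bars for the mean and whiskers for the SD of 3 wildtype and 2 deleted libraries and digits for the replicate. Every deleted library lies below every wildtype library for each gene, and the Cubn points of deleted 1 (0.279 CPM) and deleted 2 (0.606 CPM) lie apart.

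Beside the 12.9% of all tested symbols that passed as lower, 24.2% had every deleted library below every wildtype library. Among the 1017 better expressed symbols (log2 CPM not below 0 on average, a limit chosen after seeing the data), Plxdc2, Cubn and Celf2 had the second, the third and the seventh lowest log2 fold change. Among all 3591 tested symbols they ranked 23, 25 and 64 from the lowest. Since the genes were chosen for low values, nothing is read from these ranks. All 3 genes met the level that the low-count filter asks for, 0.0871 CPM, in each of the 5 libraries.

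The exon bins show whether a whole gene or a part of it was lower. The table gives bins by number only. In genes whose bin number equals the exon number of a GENCODE transcript, bin counts followed exon length better in ascending genome order than in the reverse order in 303 of 324 genes of the plus strand and 302 of 334 of the minus strand. Bins are therefore read here as numbered along the chromosome. Plxdc2 lies on the plus strand, so bin 1 is its 5′ end. Celf2 and Cubn lie on the minus strand, so their bin 1 is the 3′ end. Plxdc2 has 14 bins and Cubn 67, the exon numbers of a reference transcript each, and across these bins Spearman's rho between count and exon length was 0.863 and 0.453 in this order. The 24 bins of Celf2 match the exon number of none of its 28 reference transcripts, so they are given by number alone.

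All 14 bins of Plxdc2 were lower in the deleted cells, and in each of them both deleted libraries lay below all 3 wildtype libraries. For comparison, 24.6% of all bins past the low-count filter showed such a separation, a filter that bin 12 of Plxdc2 did not pass. The bins are parts of the sum by which the gene was chosen, so nothing is read from their number. Single bins had log2 ratios of mean CPM between −1.27 (bin 4) and −2.77 (bin 14), with a median of −1.97. Bin 1, at the 5′ end, held 135, 101 and 213 counts in wildtype 1, 2 and 3, against 22 and 24 in deleted 1 and 2, a log2 ratio of −2.04. Both ends of the gene were thus far lower in the deleted libraries. The inner bins 2 to 13 were lower as well. Bin 3 held 41, 35 and 94 counts in wildtype libraries, against 11 and 13 in the deleted ones, a log2 ratio of −1.52. Bin 9 held 14, 19 and 61 against 2 and 4 counts, a ratio of −2.60. Bin 12, the least counted, held 6, 11 and 18 counts in wildtype libraries and 0 and 3 in deleted libraries. No bin of Plxdc2 kept its wildtype level.

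Bin 14, the 3′ end with the long last exon, had the largest difference of the gene. It held 201, 189 and 494 counts in wildtype 1, 2 and 3, against 32 and 20 in deleted 1 and 2. The other 13 bins together held 449, 408 and 920 against 88 and 114 counts, a log2 ratio of −1.86. The share of the gene's counts within a bin is a measure that the choice of the genes did not use, and it was tested across all genes. Bin 14 held 26.7% and 14.9% of the gene's counts in deleted 1 and 2, so the deleted libraries lay apart. In wildtype 1, 2 and 3 it held 30.9%, 31.7% and 34.9%. In the test of shares bin 14 took a smaller share in the deleted cells by 0.68 on the log2 scale, at an unadjusted edgeR p of 0.00650. It did not pass over all tested bins (edgeR adjusted p = 0.588; 0.276% of tested bins were called as used less), and none of the other 12 tested bins had an unadjusted p under 0.05. At the level of the gene, exon usage of Plxdc2 did not pass (edgeR Simes adjusted p = 0.946). Over all genes 2.76% passed this test, and 0.126% of symbols did.

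Celf2 was lower in all 16 of its bins with a count, and in 15 of them the groups did not overlap. The exception, bin 3, held 1 to 4 counts in wildtype libraries. Of all bins with a count in any library, 20.1% showed such a separation. Celf2 was chosen by the sum of these bins, so nothing is read from their number. Bin 1, at the 3′ end, held most of the counts: 265, 240 and 500 in wildtype 1, 2 and 3, against 64 and 71 in deleted 1 and 2. Its log2 ratio of −1.64 was close to that of all other bins together, −1.55. These other bins held 207, 200 and 389 counts in wildtype libraries, against 63 and 51 in the deleted ones. The differences of single bins ranged from −2.33 (bin 13) to −0.77 (bin 10). Bin 10 held 13, 13 and 27 against 4 and 9 counts, and bin 13 held 12, 9 and 30 against 2 and 2. With so few counts, differences between the bins cannot be resolved one by one. None of 12 bins tested for usage had an unadjusted p under 0.05, and the gene did not pass (edgeR Simes adjusted p = 1).

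The remaining 8 bins of Celf2, bin 7 and bins 18 to 24, had 0 counts in every library, wildtype included. A count of 0 allows up to 3 counts, or 0.0139 to 0.0321 CPM per library, for counting error only. Bins 18 to 24 are the 7 bins farthest towards the 5′ end. The next bin, number 17, held 24, 18 and 43 counts in wildtype libraries, against 9 and 7 in the deleted ones, a log2 ratio of −1.13. Celf2 RNA was thus counted from bin 17 to the 3′ end in both groups, with the upstream bins at 0 in both. Which of the 5 RefSeq starts this RNA came from was not tested, since the bins carry no coordinates.

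**Figure D2:**
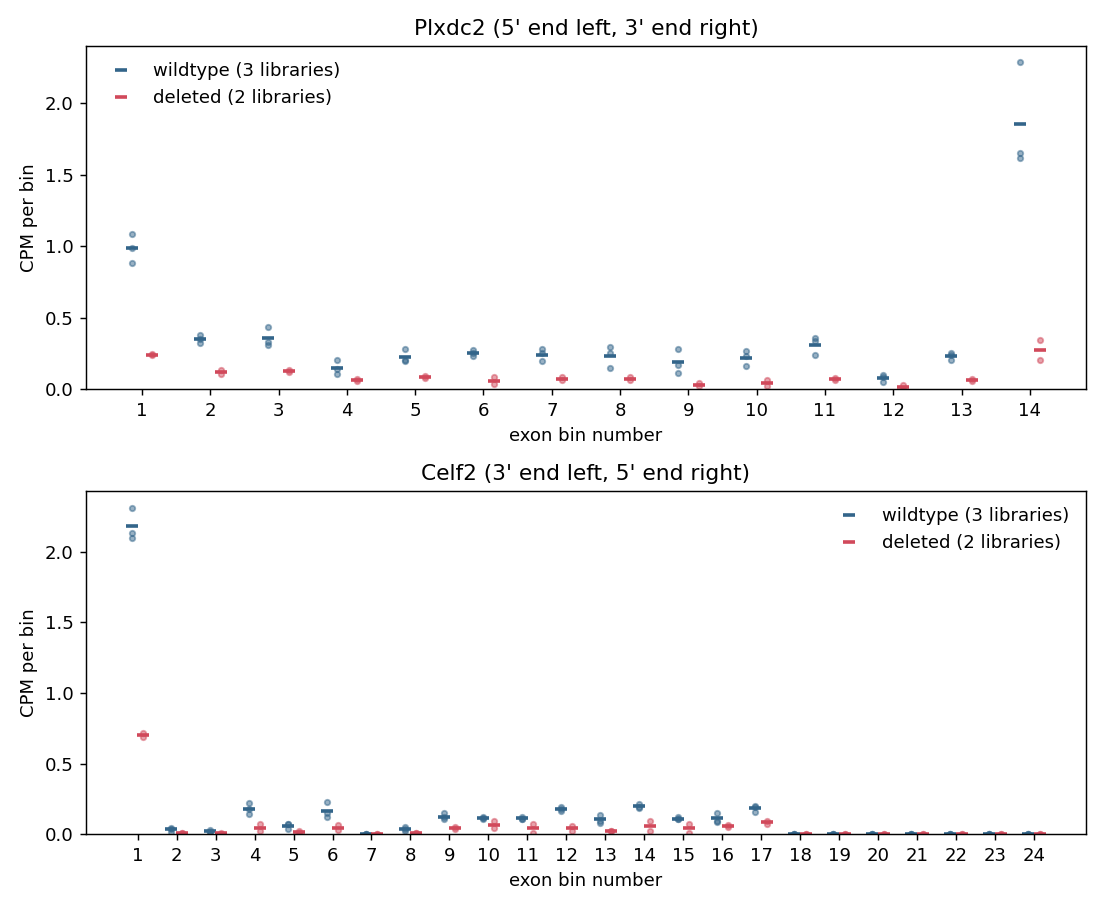
CPM of each exon bin of Plxdc2 (upper panel) and Celf2 (lower panel), with a point per library and a dash for the mean of 3 wildtype or 2 deleted libraries. Deleted dashes lie below wildtype dashes in all 14 bins of Plxdc2 and all 16 counted bins of Celf2, and bins 7 and 18 to 24 of Celf2 are at 0 in both groups.

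Cubn was lower on average in all 67 bins. Single bins held few counts, at most 23 in any library, and the groups did not overlap in 39 of them. Of all bins with a count in any library, 20.1% had every deleted library below every wildtype library. Cubn was chosen by the sum of its bins, and 33 bins had 0 counts in both deleted libraries. Nothing is therefore read from the number of separated bins. Only 1 bin of Cubn passed the low-count filter. The counts declined from the 3′ end to the 5′ end in both groups. Bin 1, the most counted bin, held 21, 23 and 22 counts in wildtype 1, 2 and 3, against 7 and 9 in deleted 1 and 2, a log2 ratio of −0.92. In CPM bin 1 stood at 0.169, 0.201 and 0.102 in wildtype 1, 2 and 3, against 0.0750 and 0.0909 in deleted 1 and 2. Both deleted libraries were lower there, deleted 2 only just below wildtype 3, and by less than over the rest of the gene. The other 66 bins held 187, 207 and 396 counts in wildtype libraries, against 19 and 51 in the deleted ones, a log2 ratio of −2.26. With only the most counted bin of each gene in the edgeR fit, the log2 fold change of Cubn was −0.80 in place of −2.07.

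In 33 bins of Cubn both deleted libraries had 0 counts. Each of these bins held 2 to 25 counts over the 3 wildtype libraries. Examples near the 3′ end are bins 7 and 8, with 5, 7 and 9 and with 6, 8 and 11 counts in wildtype 1, 2 and 3. In the middle of the gene, bin 34 held 7, 6 and 4 counts and bin 35 held 6, 6 and 8. Towards the 5′ end, bin 53 held 1, 5 and 7 counts. These bins were picked for their zeros, and a bin with 1 or 2 counts in each wildtype library could be at 0 in deleted libraries by counting alone. Deleted 1 and 2 held only 26 and 60 counts over the 67 bins. Whether zeros in the better counted bins go beyond the lower level of the whole gene was not tested.

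**Figure D3:**
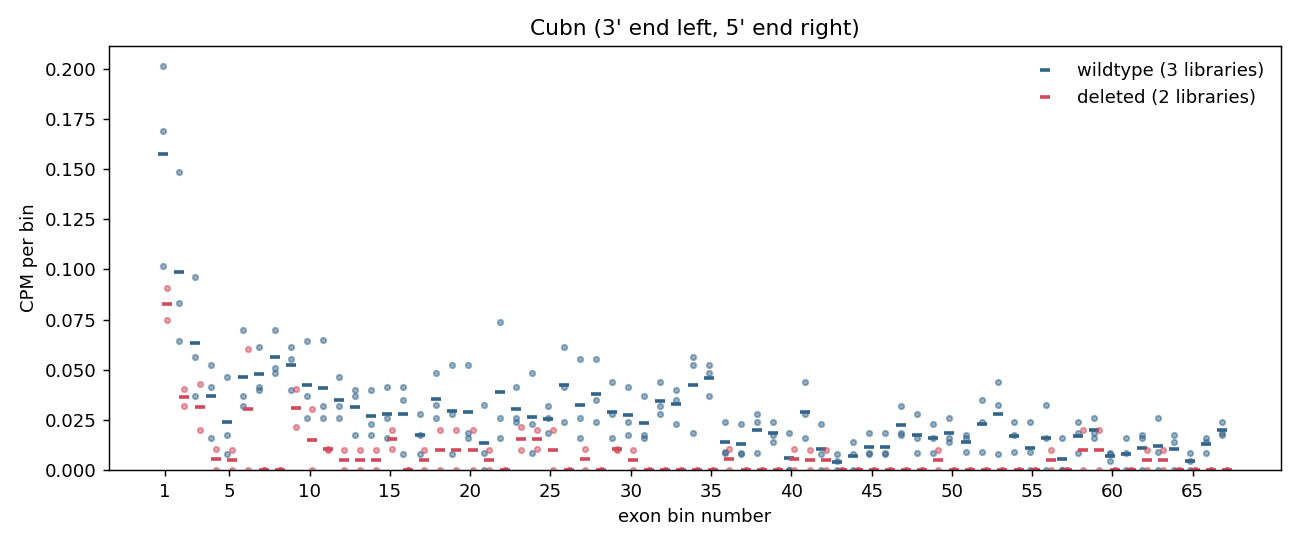
CPM of each of the 67 exon bins of Cubn, with a point per library and a dash for the mean of 3 wildtype or 2 deleted libraries. Both groups are highest at bin 1, the 3′ end, and the deleted dash lies below the wildtype dash in every bin, at 0 in 33 of them.

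Summed into 3 consecutive parts, a step chosen after seeing the data, all parts of Cubn were lower. Bins 1 to 22, the 3′ part, held 100, 130 and 216 counts in wildtype 1, 2 and 3, against 19 and 43 in deleted 1 and 2, a log2 ratio of −1.62. Bins 23 to 44 held 65, 61 and 132 against 7 and 9 counts, a ratio of −2.74. Bins 45 to 67, the 5′ part, held 43, 39 and 70 against 0 and 8 counts, a ratio of −3.06. The 3′ part thus made up 73.1% and 71.7% of the Cubn counts in deleted 1 and 2, against 48.1%, 56.5% and 51.7% in wildtype 1, 2 and 3. These shares did not overlap between the groups, but the difference in usage did not pass: the unadjusted p was 0.165 for the 3′ part and 0.168 for the 5′ part, and the gene had an edgeR Simes adjusted p of 1. In this test 0.327% of all genes passed.

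In Plxdc2 the 3′ part held the smaller share in the deleted cells. This part, bins 10 to 14, made up 38.3% and 31.3% of the counts in deleted 1 and 2, against 46.9%, 45.9% and 49.0% in wildtype 1, 2 and 3. It had an unadjusted p of 0.0453 and an adjusted p of 1 (edgeR). In Celf2, bins 1 to 8 made up 64.7% ± 0.132 of the counts in deleted and 68.4% ± 1.63 in wildtype cells, and the shares did not overlap between the groups in any of the 3 parts. Its usage had an edgeR Simes adjusted p of 1. A p that misses the threshold does not show that the parts changed equally. In bins 9 to 16 of Celf2 the gap was only between 28.3% in deleted 1 and 28.2% in wildtype 1. The 3 shares of a gene add up to the whole, so they are not separate results. How often such shares separate over all genes was not counted, so nothing is read from the separation in Cubn or Celf2. Over 1532 tested symbols with at least 10 bins, the median share of counts in the 3′ part of a gene was 48.2% and 49.5% in the deleted and 49.5% to 50% in the wildtype libraries.

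**Figure D4:**
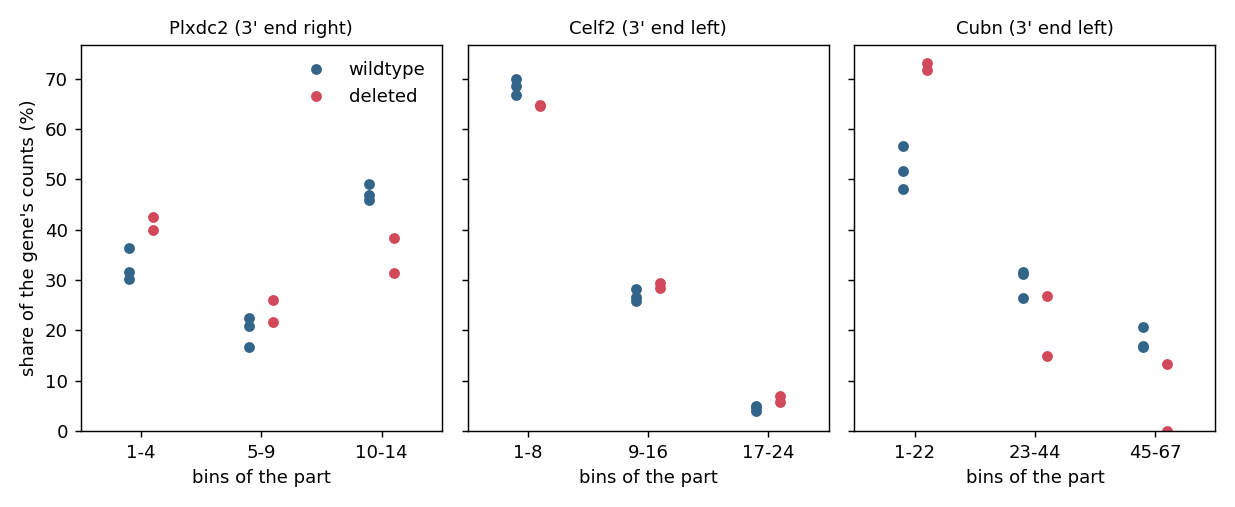
Share of each gene's counts, in percent, in 3 consecutive groups of exon bins, with a point for each of 3 wildtype and 2 deleted libraries. In Cubn the 3′ part (bins 1 to 22) lies at 71.7% and 73.1% in deleted and at 48.1% to 56.5% in wildtype libraries; in Plxdc2 the 3′ part (bins 10 to 14) lies lower in the deleted libraries.

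Around the 3 genes most neighbours carry no symbol in the table. Of the 25 nearest RefSeq genes on each side of each member, 132 in all, 20 had rows and 8 could be tested. Of these 2 were lower and none was higher, against 12.9% lower and 18.9% higher over all tested symbols and 19.6% and 19.9% over all tested genes. Celf2 and Cubn are separated by 138 annotated genes and Cubn and Plxdc2 by 32. Between Celf2 and Plxdc2, 7 other symbols were tested, of which none passed as lower and 1 passed as higher. That gene was Sfmbt2, a Polycomb-type repressor gene, at 13.8 ± 0.233 CPM against 11.3 ± 0.764 CPM. Its log2 fold change was 0.29 ± 0.08 (edgeR adjusted p = 0.0238), and it no longer passed when wildtype 1, wildtype 2 or either deleted library was left out (adjusted p = 0.0633 to 0.163). Mrc1, a mannose receptor gene and the only tested gene between Cubn and Plxdc2, had a log2 fold change of 0.21 ± 0.10 (edgeR adjusted p = 0.131). The lowered genes were thus interspersed with tested genes that did not pass as lower. A missed threshold does not show that a gene was unchanged, and most genes of the interval could not be tested.

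Just outside this interval, Nebl, which encodes the actin-binding protein nebulette and is the fourth annotated gene after Plxdc2, was lower. It stood at 0.241, 0.219 and 0.236 CPM in wildtype 1, 2 and 3, and at 0.107 and 0.0505 CPM in deleted 1 and 2, a log2 fold change of −1.56 ± 0.36 (edgeR adjusted p = 0.0113). The groups did not overlap, but the call ended without deleted 2 (log2 fold change −1.13; edgeR adjusted p = 0.0873). Proser2, on the far side of Celf2, fell from 1.85 ± 0.0532 CPM to 1.29 ± 0.0632 CPM, a log2 fold change of −0.52 ± 0.11 (edgeR adjusted p = 0.00921). Without deleted 1 its adjusted p was 0.0758. Farther on, Gad2, which makes the neurotransmitter GABA, had 0.151 ± 0.0229 CPM against 0.0419 ± 0.0165 CPM. Its log2 fold change was −1.87 ± 0.44 (edgeR adjusted p = 0.0122), and −1.53 without deleted 2 (adjusted p = 0.0975). Gad2 met the level of the low-count filter in wildtype libraries alone, and Nebl in 1 of 2 deleted libraries.

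In a list of 90 other proximal chromosome 2 genes, 12 were tested, 3 of them lower, 1 higher and 8 not past the threshold, with a median log2 fold change of −0.11. Over the whole of chromosome 2, 16.3% of 264 tested symbols were lower and 14.4% higher, with a median of −0.07. Over all tested symbols 12.9% were lower and 18.9% higher, with a median of 0.07. By number of bins, the 6613 tested genes with 10 to 24 bins, as Plxdc2 and Celf2 have, had a median log2 fold change of −0.0033, and the 355 with over 40 bins, as Cubn has, one of 0.07. Of the 4 annotated genes that overlap Celf2 or Cubn, 1 had a row, 5031426D15Rik, with 1 count in wildtype 3 and 0 in the other libraries. None overlaps Plxdc2. Genes under assembly IDs could overlap the members and were not placed here.

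**Figure D5:**
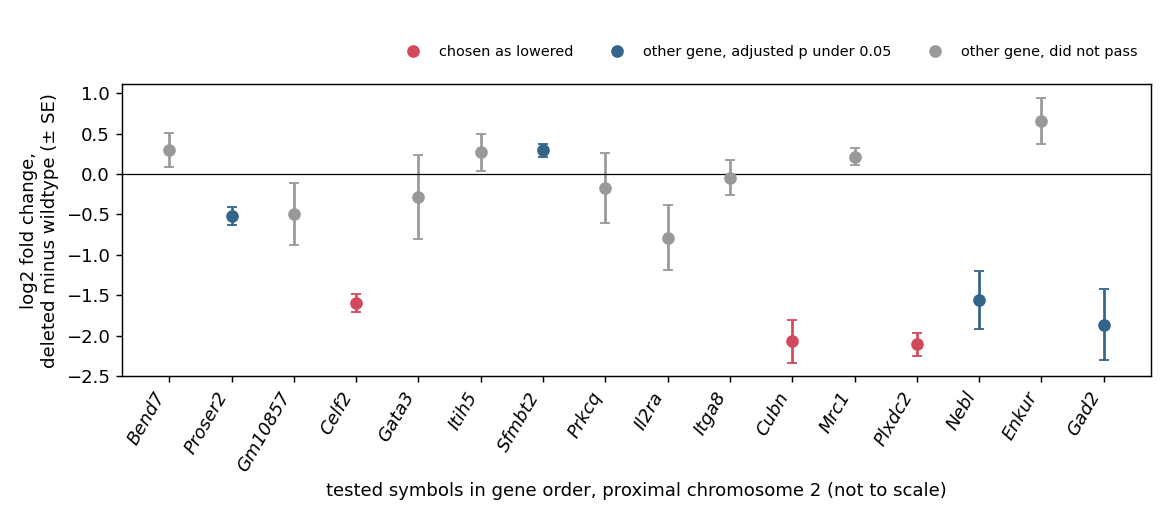
Log2 fold change, deleted minus wildtype, with its SE for the 16 tested symbols of proximal chromosome 2, in gene order and not to scale. Plxdc2, Celf2 and Cubn, chosen as lowered, lie between −2.11 and −1.60, with 7 tested symbols between Celf2 and Plxdc2 that did not pass as lower.

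Relatives and partners of the 3 proteins were followed from lists of such genes, with few under their symbols. Of the CELF family, Celf5 had 3.02 ± 0.291 CPM in wildtype libraries, against 2.91 ± 0.473 CPM in deleted libraries. Its log2 fold change was −0.06 ± 0.13 and that of Celf6 was −0.28 ± 0.33 (edgeR adjusted p = 0.755 and 0.546), so neither passed. Celf3 had too few counts for a test. Among 26 other tissue-specific splicing regulators 6 were tested, of which 2 were lower, 2 higher and 2 did not pass, beside 12.9% lower and 18.9% higher over all tested symbols. Nova1, a neuronal splicing factor gene, fell from 4.57 ± 0.404 CPM to 2.78 ± 0.338 CPM, a log2 fold change of −0.72 ± 0.12 (edgeR adjusted p = 0.00284). Rbfox3, of another neuronal splicing family, had −0.73 ± 0.19 (adjusted p = 0.0207), and the neuronal RNA-binding genes Elavl3 and Nova2 had 0.80 ± 0.12 and 0.58 ± 0.15 (edgeR adjusted p = 0.00186 and 0.0194). The calls of Rbfox3 and Nova2 ended without deleted 1 (edgeR adjusted p = 0.0984 and 0.155) and without deleted 2 (0.112 and 0.0510). In its most counted bin Rbfox3 had a log2 fold change of −0.17 (edgeR adjusted p = 0.602).

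For Plxdc2, the ligand gene Serpinf1 had 0.256 ± 0.00747 CPM in wildtype and 0.154 ± 0.0817 CPM in deleted cells. Its log2 fold change of −0.72 ± 0.34 did not pass (edgeR adjusted p = 0.127), and it was −1.42 without deleted 2 (0.0461). Plxdc1, the closest relative of Plxdc2, was not analysed here. Of 5 tested plexins, receptors of semaphorins that share a domain with Plxdc2, 2 were higher, 1 was lower and 2 did not pass, against the same 18.9% and 12.9% of tested symbols. Plxnd1 rose from 0.439 ± 0.159 CPM to 1.62 ± 0.451 CPM, a log2 fold change of 1.82 ± 0.29 (edgeR adjusted p = 0.00210). Plxna4 stood at 0.849 ± 0.167 CPM in wildtype and 0.429 ± 0.107 CPM in deleted cells (edgeR adjusted p = 0.0136), and did not pass without deleted 1 (0.113). Plxna2, at 0.49 ± 0.17, lay at the threshold (edgeR adjusted p = 0.0499). It did not pass without wildtype 1 (0.144), wildtype 2 (0.127), deleted 1 (0.198) or deleted 2 (0.184), nor in its most counted bin (log2 fold change 0.23; edgeR adjusted p = 0.409).

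For Cubn, Dab2 was the only tested gene among 17 listed partners and cargo genes. It encodes an endocytic adaptor that links megalin to clathrin. It averaged 2.31 ± 0.219 CPM in deleted and 2.16 ± 0.180 CPM in wildtype cells, and its log2 fold change of 0.10 ± 0.12 did not pass (edgeR adjusted p = 0.565). Amn and Lrp2 were not analysed here. Of 34 visceral endoderm markers other than Cubn, 23 had rows and 14 were tested. Of the 14, 3 passed as lower and 1 as higher, with a median log2 fold change of −0.04. With 12.9% of all tested symbols lower and 18.9% higher, nothing is read from these counts. The list summed to 10.4 to 11.0 CPM in wildtype and 9.18 to 10.2 CPM in deleted libraries, and Apoa4, Ttr and Fgb were at 0 in every library.

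The lower endoderm markers were Sox7, a transcription factor gene, Pdgfra, a growth factor receptor gene of the primitive endoderm, and the metal transporter gene Slc39a8. Their log2 fold changes were −0.89 ± 0.16, −1.02 ± 0.22 and −1.02 ± 0.34 (edgeR adjusted p = 0.00370, 0.00847 and 0.0471). Without deleted 1, Pdgfra and Slc39a8 did not pass (edgeR adjusted p = 0.0692 and 0.226). Slc39a8 passed without deleted 2 or wildtype 3 but not without wildtype 1 or 2 (0.0997 and 0.0650), nor in its most counted bin (log2 fold change −0.62; edgeR adjusted p = 0.203). Of 5 tested parietal endoderm markers 2 were lower, Sox7 and Fst, an activin antagonist gene at −0.52 ± 0.09 (edgeR adjusted p = 0.00304), and 3 did not pass, beside 12.9% lower over all tested symbols. Fst did not pass in its most counted bin alone (adjusted p = 0.0503). The part of these markers in the lower Cubn level was not tested.

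The symbols whose levels followed those of each gene most closely over the 5 libraries lay on other chromosomes. Likeness was measured as the root mean square difference of log2 CPM centred on its mean, among 3243 symbols that are not predicted genes. For Plxdc2 the closest were Hivep2 (0.0952), Ankrd34a (0.154) and Prss42 (0.168), with log2 fold changes of −2.13 ± 0.26, −2.40 ± 0.16 and −2.59 ± 0.41. For Celf2 they were Mrc2 (0.0316), Enpp2 (0.0868) and Mdga1 (0.0879), with −1.66 ± 0.15, −1.54 ± 0.19 and −1.49 ± 0.14. For Cubn they were Erg (0.139), Tmem88b (0.197) and Fbxo40 (0.211), with −2.46 ± 0.35, −2.95 ± 0.83 and −2.88 ± 0.57. Plxdc2 ranked 12 in closeness to Cubn and 76 to Celf2, and Celf2 ranked 38 in closeness to Cubn. In closeness to Plxdc2, Celf2 ranked 15 and Cubn 35, and Cubn ranked 348 in closeness to Celf2. The 3 genes were therefore not each other's nearest neighbours in pattern. This order rests on 5 libraries and mostly on the size of the difference, and is a description.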

How the data were processed

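The authors deposited raw read counts per exon bin for 3 wildtype and 2 deleted libraries. The submitters' processing notes list STAR, without a version, and the mouse build mm9. No source used here gives the counter, the annotation or the strand setting, so reads of a gene and of one that overlaps it, antisense included, cannot be told apart. Here bins were summed per gene, with 56 spike-in rows left out. Genes passing filterByExpr entered edgeR's quasi-likelihood test with TMM scaling. Exon usage was tested with diffSpliceDGE on bins past the same filter in genes with at least 2 such bins (R 4.3.3, edgeR 4.0.16, limma 3.58.1). Bins passed that filter mostly through the wildtype libraries: both deleted libraries met its level in 4 of 13 such bins of Plxdc2, 1 of 12 of Celf2 and 0 of 1 of Cubn, which left Cubn out of the bin-level test. Both tests were tried on simulated data. The threshold was an adjusted p (Benjamini-Hochberg) below 0.05. Fold changes are deleted minus wildtype, and the SE is derived from the quasi-likelihood F. Ratios of single bins are of mean CPM. Gene order came from RefSeq on GRCm38.p6 and exon numbers from GENCODE vM21, another build than the authors', so gene coordinates are not given. The genes, lists and motifs were chosen with earlier results of these data known. Genes named are the members, list members and neighbours past the threshold, relatives and partners, and the 3 closest symbols by pattern. Alternatives covered size factors of DESeq2, DESeq2 1.42.0, low-count filters, the most counted bin, limma voom, a replicate block and each library left out. The values of 1 visceral endoderm marker are not reported here.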

Additional observations from a re-analysis of the deposited data

How the results depend on the processing

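Over 11 alternatives each, all planned, the log2 fold change stayed negative for all 3 genes: −2.76 to −1.98 for Plxdc2, −1.67 to −1.55 for Celf2 and −2.76 to −0.80 for Cubn. It moved by more than the replicate SD with the most counted bin alone for Plxdc2 (−2.76) and Cubn (−0.80), and for Cubn without deleted 2 (−2.76, the low end of −2.76 to −1.63 over single libraries left out). Without single libraries Plxdc2 ranged from −2.18 to −1.99. In the most counted bin Mbnl3, which did not pass at 0.12, was lower (−0.37; edgeR adjusted p = 0.0252). With single libraries left out, genes higher numbered 1674 (without deleted 1) to 4146 (without wildtype 3), against 3242, and genes lower 1532 to 4136 without the same libraries, against 3179. Without deleted 2 they numbered 1788 and 2076. Genes called for exon usage numbered 360, against 728 with limma voom, 576 with the replicate block, 42 with bins summed into 3 parts (chosen after seeing the data) and 103 to 621 without single libraries. Neither Plxdc2 nor Celf2 passed for usage under any alternative run, with a lowest adjusted p of 0.109 (limma voom, Plxdc2). Celf2 had no usage test with at least 10 counts in every library. Shared replicate numbers are not said to pair libraries, and deviations of same-numbered libraries correlated at 0.0536 and −0.0539. The deviations of the 2 deleted libraries mirror each other, so these correlations cannot decide on pairing. With the replicate block the members had −1.98 (Plxdc2), −1.56 (Celf2) and −2.08 (Cubn). Low counts limit single bins of Celf2 and Cubn.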
